A study of Homo sapiens with 22 samples.

Results

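The MYC, MAX and MXD network was examined as 10 genes, taken by gene symbol and not by any measured value: MYC, MAX, MXD1, MXD3, MXD4, MXI1, MNT, MGA, MLX and MLXIP. Each of the 2 tables used here, one for MOLM-13 and one for NB4 cells, held all 10 among 20411 protein-coding genes. MOLM-13 and NB4 are human acute myeloid leukemia (AML) cell lines, and the labels give both as wild type. Cells of each line received either FP54 at 2 μM or its solvent DMSO for 48 h, and poly(A) RNA was sequenced from 3 libraries per treatment and line, which makes 12 of the 22 samples in the labels. FP54 is a proteolysis-targeting chimera (PROTAC), a compound that brings the VHL ubiquitin ligase to the protein FTO, an RNA demethylase that removes the methyl mark m6A, so that FTO is degraded. Each line is a single model of the disease, no library with an inactive analogue of FP54 was used here, and nothing in the labels says that replicates came from separate cultures, so p-values measure only the spread between these libraries, which may be technical.

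MYC is a transcription factor that drives cell growth, ribosome production and division. It binds DNA at E-box sequences only as a pair with MAX, a small protein that is usually present in stable amounts. The MXD proteins (MXD1, MXD3, MXD4 and MXI1), MNT and MGA also pair with MAX and bind the same sites, but bring corepressors to them, so that genes near E-boxes answer to the balance of activating and repressing partners. MYC protein dominates this balance in dividing progenitors, while MXD1 is known for its rise as myeloid cells leave the cycle and mature. MLX joins the network from the side: it pairs with MXD1, MXD4 and MNT, and with MLXIP (MondoA), a sensor of glucose metabolites.

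Values are RPKM, read counts divided by the length of the transcript and by the size of the library, so that levels can be compared between genes of one table. Between the tables, which were made separately, levels are set side by side without a test. FP54 was compared with DMSO by limma, a linear model fitted across all genes, on log2(RPKM + 0.1), for genes with a mean of at least 1 RPKM over the 6 libraries of a line. All 10 network genes met this minimum in both lines. A gene was called changed where p was below 0.01 and the log2 levels of the treatments differed by 0.5 or more, the cutoff of the study's methods. The adjusted p-values given are limma's after Benjamini-Hochberg correction over all genes tested, and SE is the standard error of a log2 fold change. A fold change on this scale slightly understates the change of genes near 1 RPKM. With 3 libraries against 3, an exact permutation test cannot give a two-sided p below 0.1.

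Total reads on genes, recovered from the RPKM, lay between 16299701 and 17346914 in the DMSO and between 5829730 and 19191055 in the FP54 libraries of MOLM-13 cells. In NB4 cells they lay between 20654055 and 22344266 with DMSO and between 10595647 and 13071303 with FP54, so every NB4 FP54 library was shallower than every NB4 DMSO library. The network genes had from 58 reads (MXD3 in MOLM-13 FP54 replicate 2, the shallowest library) to 18512 reads (MYC in NB4 cells). With DMSO, MOLM-13 cells had the leukemia genes HOXA9 at 21.3 RPKM and MEIS1 at 6.36 RPKM, which were at 0.234 and 0.157 RPKM in NB4 cells. FLT3 was also higher in MOLM-13 cells (74.0 beside 5.67 RPKM in NB4 cells), but HOXA10 was lower in them (7.30 beside 13.2 RPKM). NB4 cells, a promyelocytic line, had the granule enzyme gene MPO at 2170 RPKM against 16.1 RPKM in MOLM-13 cells, but the promyelocyte marker ELANE was near 0 in them (0.150 RPKM, beside 186 RPKM in MOLM-13 cells), and PRTN3 (61.0 beside 413 RPKM), CTSG (58.5 beside 116 RPKM) and AZU1 (9.96 beside 174 RPKM) were also lower in NB4 than in MOLM-13 cells. FTO mRNA was at 1.01 RPKM with DMSO and with FP54 in MOLM-13 cells and at 2.73 and 2.03 RPKM in NB4 cells. It was not called in either line, and it does not check the treatment, since FP54 acts on the protein.

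Other values moved with FP54 in NB4 cells or set single libraries apart, and their part in the results below was not tested. Summed RPKM of the 5 myeloid markers, mostly MPO, ranged from 2179 to 2439 with DMSO and from 1195 to 1268 with FP54 in NB4 cells. Of the other markers in this sum, SPI1 (80.2 and 60.5 RPKM), CEBPE (27.1 and 15.7) and LYZ (33.6 and 30.3) had lower means with FP54. CD33 did not (13.3 and 13.5 RPKM). In MOLM-13 cells the sum ranged from 674 to 730 with DMSO and from 726 to 970 with FP54. The sum of the 4 T cell markers in NB4 cells, mostly CD3D, ranged from 6.14 to 7.11 with DMSO and from 11.2 to 11.7 with FP54. Means of CD3G were 0.117 and 0.967 RPKM and those of CD3E 0.0061 and 0.156 RPKM, while CD2 was near 0 with both. The mean RPKM of 400 olfactory receptor genes, which leukemia cells are not known to express, was 0.0509 to 0.0544 in the NB4 FP54 libraries and at most 0.00833 in the other 9. Subtracting it, an alternative added after seeing the data, changed no call of a network gene. The median log2 fold change of all genes was 0.0033 in MOLM-13 and 0.07 in NB4 cells, and median-ratio scaling moved the latter to −0.13. In MOLM-13 cells DMSO replicate 2 stood apart from the other DMSO libraries for MYC and its target genes, and values of MYC, its balance with the MXD genes and its targets are given with and without it. It also stood apart over all genes: a chi-square distance of read counts, per degree of freedom, was 30.7 and 32.5 to the other DMSO libraries, which were 16.7 apart. DMSO replicate 2 of NB4 cells did so too, at 40.8 and 30.5, with the other DMSO libraries 14.3 apart. In bulk RNA, fewer cells of a type and less RNA per cell cannot be told apart.

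In NB4 cells, MYC mRNA fell with FP54 while the transcripts of 2 of its antagonists, MXD1 and MXI1, rose, and the other 7 genes were not called. In MOLM-13 cells, none of the 10 genes was called, although the mean of MYC was lower still relative to DMSO than in NB4 cells. Thus 3 of 10 network genes were called in NB4 cells, where 29.3% of the 9853 genes tested were called, and 0 of 10 were called in MOLM-13 cells, where 18.3% of 9710 genes were called. The share in NB4 cells was that of the background. Groups did not overlap for 5 of the network genes in NB4 cells (60.5% of all genes tested), 2 of them lower (26.2%) and 3 higher (34.3%) with FP54, and for 3 in MOLM-13 cells (37.1%), all higher (20.2%). The plot of RPKM by library shows all 10 genes in both lines.

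**Figure D1:**
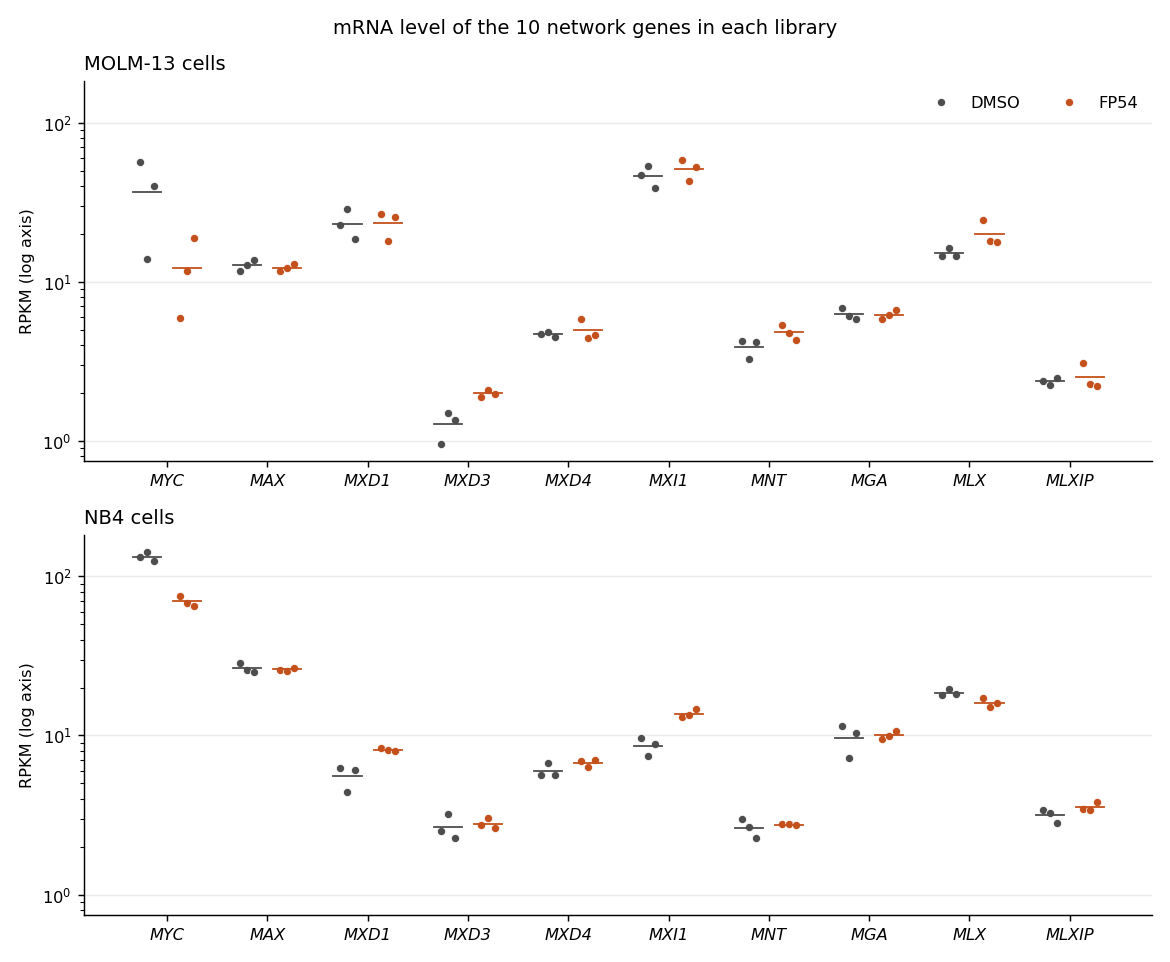
RPKM (log axis) of the 10 network genes in each MOLM-13 (top) and NB4 (bottom) library, with DMSO libraries in grey, FP54 libraries in orange, replicates 1 to 3 from left to right, and a line at the mean of each group. MYC lay at 125 to 142 RPKM with DMSO and at 65.0 to 75.8 RPKM with FP54 in NB4 cells, whereas the MOLM-13 groups overlapped through the DMSO library at 13.8 RPKM.

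MYC, the activating partner of MAX (chromosome 8 from 127735434 to 127742951 in hg38, plus strand), stood at 133, 142 and 125 RPKM in the 3 DMSO libraries of NB4 cells and at 75.8, 67.9 and 65.0 RPKM in the FP54 libraries. Every FP54 library was below every DMSO library. The DMSO mean of 133 ± 8.85 RPKM (SD, n = 3) compared with 69.6 ± 5.55 RPKM (SD, n = 3) under FP54, or 52.2% of DMSO, and gave a log2 fold change of −0.94 (SE 0.09, adjusted p = 1.62e-05 from limma). It was the network gene with the highest level in NB4 cells under both treatments, and its decrease was called under every alternative, with each library left out as well.

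In MOLM-13 cells the DMSO libraries disagreed on MYC, at 56.5, 13.8 and 40.2 RPKM, while the FP54 libraries were at 5.91, 11.8 and 18.8 RPKM. DMSO replicate 2 lay within the range of the FP54 libraries, so the groups overlapped. The FP54 mean of 12.1 ± 6.44 RPKM (SD, n = 3) was 33.0% of the DMSO mean of 36.8 ± 21.5 RPKM (SD, n = 3). On the log2 scale the change was −1.52 (SE 0.50, 95% interval −2.63 to −0.42). It missed the cutoff on its p (0.0118), with adjusted p = 0.0567 from limma. Without DMSO replicate 2 it was −2.11 (adjusted p = 0.00855 from limma) and met the cutoff, as it did without FP54 replicate 3 (−1.91, adjusted p = 0.0303 from limma). Limma-voom on the recovered reads gave −1.57 (adjusted p = 0.0362) with all libraries, which also met it. The annotated exons of MYC overlap those of the noncoding gene CASC11 on the other strand, and the counting's strand setting is not given in the sources used here.

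MAX, the shared partner (chromosome 14 from 65006174 to 65102695, minus strand), was not called in either line. In MOLM-13 cells it was at 11.7, 12.8 and 13.6 RPKM with DMSO and at 11.7, 12.1 and 12.9 RPKM with FP54, and the groups overlapped. Its log2 fold change was −0.05 there (95% interval −0.35 to 0.25, adjusted p = 0.813 from limma) and −0.02 in NB4 cells (95% interval −0.20 to 0.17, adjusted p = 0.865 from limma). Both intervals lay within 0.5 of 0, the minimum change of the cutoff. With median-ratio scaling the NB4 change of MAX was −0.22 (adjusted p = 0.047 from limma), still short of that minimum. In NB4 cells its mean was 26.4 RPKM with DMSO and 26.0 RPKM with FP54. Exons of MAX overlap those of FNTB on the other strand.

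Among the 4 MXD genes, MXI1 and MXD1 rose in NB4 cells. MXI1, a repressing partner of MAX (chromosome 10 from 110207605 to 110287365, plus strand), was at 9.57, 7.47 and 8.88 RPKM with DMSO and at 13.0, 13.4 and 14.7 RPKM with FP54. The groups were clear of each other, and the log2 fold change was 0.66 (SE 0.11, adjusted p = 0.000595 from limma). MXD1, the family member tied to myeloid maturation (chromosome 2 from 69897688 to 69942945, plus strand), was at 6.21, 4.41 and 6.05 RPKM and at 8.31, 8.15 and 7.99 RPKM. All 3 FP54 libraries were above the DMSO libraries, with DMSO replicate 2 the lowest, and the log2 fold change was 0.56 (SE 0.13, adjusted p = 0.00473 from limma). Both stayed positive under each scaling, but neither reached 0.5 with median-ratio scaling (0.47 for MXI1 and 0.36 for MXD1), and MXD1 also missed it with quantile normalization (0.43) and without DMSO replicate 2 (0.40). Exons of MXD1 overlap those of SNRNP27 on the same strand, so the level of MXD1 is uncertain. Exons of MXI1 overlap those of a noncoding gene on the other strand.

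The same pair of genes was not called in MOLM-13 cells, where both were more abundant. MXI1 was at 46.6, 53.2 and 38.6 RPKM with DMSO and at 58.4, 43.1 and 52.9 RPKM with FP54 there, and MXD1 was at 22.7, 28.5 and 18.4 RPKM and at 26.7, 18.1 and 25.4 RPKM. The groups overlapped for both genes. The log2 fold changes were 0.16 for MXI1 (95% interval −0.21 to 0.53) and 0.01 for MXD1 (95% interval −0.43 to 0.45), with adjusted p = 0.527 and 0.970 from limma, and the sign of MXD1 turned with median-ratio scaling (−0.01).

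MXD3, the family member known from cells in S phase (chromosome 5 from 177301461 to 177312757, minus strand), had the lowest mean of the network in MOLM-13 cells, at 0.956, 1.50 and 1.35 RPKM with DMSO and 1.89, 2.10 and 1.98 RPKM with FP54. The FP54 libraries were all higher, but the log2 fold change of 0.63 (SE 0.21, adjusted p = 0.0623 from limma) missed the cutoff on its p (0.0139), on 58 to 172 reads per library. Without DMSO replicate 2 it was 0.76 (adjusted p = 0.0366 from limma), past the cutoff. MXD3 exons overlap those of PRELID1 on the other strand and of RAB24 on the same strand, so its level is uncertain. In NB4 cells its log2 fold change was 0.08 (adjusted p = 0.647 from limma) and turned negative with median-ratio scaling and quantile normalization.

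MXD4, a partner of MAX and of MLX (chromosome 4 from 2247432 to 2262109, minus strand), had group means between 4.67 and 6.76 RPKM across both lines and treatments. Its log2 fold change was 0.08 in MOLM-13 cells (adjusted p = 0.759 from limma) and 0.18 in NB4 cells (adjusted p = 0.180 from limma). The NB4 value turned slightly negative with median-ratio scaling.

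MNT, an antagonist expressed in most tissues (chromosome 17 from 2384073 to 2401104, minus strand), was at 4.21, 3.27 and 4.20 RPKM with DMSO and at 5.34, 4.79 and 4.28 RPKM with FP54 in MOLM-13 cells. The groups did not overlap, with the nearest libraries at 4.21 and 4.28 RPKM, and the log2 fold change of 0.30 (95% interval −0.08 to 0.68) was not called (adjusted p = 0.239 from limma). In NB4 cells, where MNT had the lowest DMSO mean of the network (2.63 RPKM), the change was 0.07 (adjusted p = 0.649 from limma) and turned negative with both other scalings. MGA, a very large protein that also holds a T-box domain and anchors a Polycomb complex (chromosome 15 from 41621134 to 41773081, plus strand), was at 6.24 and 6.21 RPKM on average in MOLM-13 cells and at 9.70 and 10.0 RPKM in NB4 cells with DMSO and FP54. Its adjusted p-values from limma were 0.985 and 0.707, and the groups overlapped in both lines.

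MLX, the partner that links the network to MondoA (chromosome 17 from 42567072 to 42573239, plus strand), lay above DMSO with FP54 in one line and below it in the other. In MOLM-13 cells it was at 14.6, 16.4 and 14.6 RPKM with DMSO and at 24.5, 17.9 and 17.8 RPKM with FP54. In NB4 cells it was at 18.0, 19.4 and 18.3 RPKM and at 17.3, 15.0 and 16.0 RPKM. Groups did not overlap in either line, but neither change was called, with log2 fold changes of 0.39 (adjusted p = 0.111 from limma) and −0.21 (adjusted p = 0.0693 from limma). FP54 replicate 1 was the high library of MOLM-13 cells, and without it the change was 0.24. Exons of MLX overlap those of PSMC3IP on the other strand.

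MLXIP, the MondoA gene (chromosome 12 from 122078756 to 122147344, plus strand), was at 3.41, 3.25 and 2.82 RPKM with DMSO and at 3.44, 3.42 and 3.83 RPKM with FP54 in NB4 cells. The FP54 libraries were all above DMSO, with the nearest libraries at 3.41 and 3.42 RPKM, and the change of 0.17 (adjusted p = 0.234 from limma) was not called. In MOLM-13 cells the groups overlapped, at means of 2.38 and 2.52 RPKM. The plot of fold changes sets the 10 genes of both lines side by side.

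**Figure D2:**
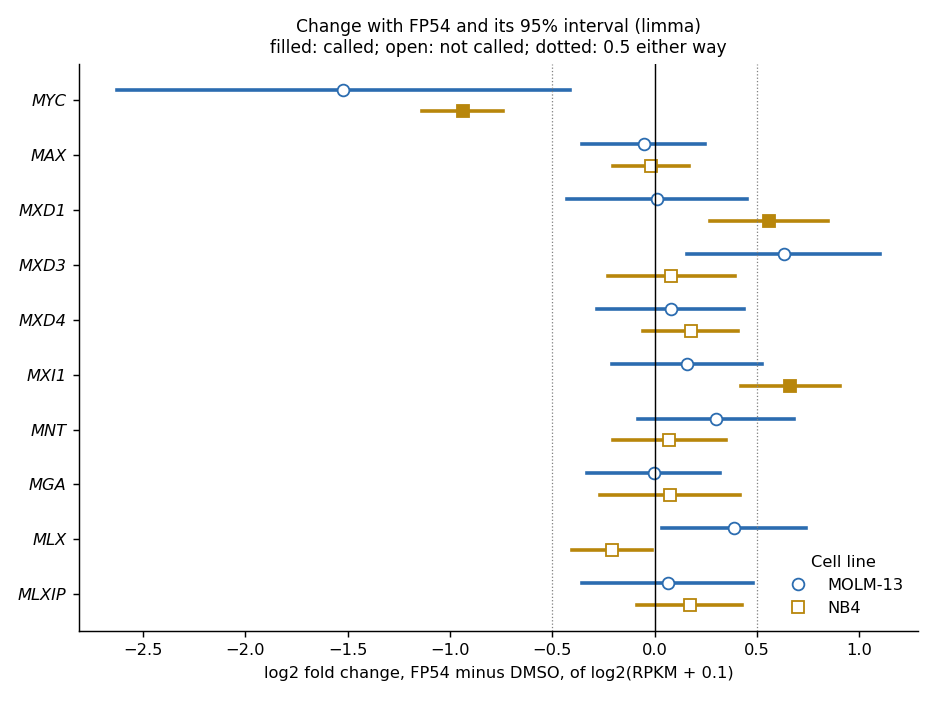
Log2 fold change of FP54 over DMSO on log2(RPKM + 0.1) for each network gene, with 95% intervals from limma, in MOLM-13 (blue circles) and NB4 (ochre squares) cells. Filled symbols passed the cutoff: MYC at −0.94, MXI1 at 0.66 and MXD1 at 0.56, all in NB4 cells, while the interval of MYC in MOLM-13 cells ran from −2.63 to −0.42.

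Whether the effect of FP54 differed between the lines was tested with an interaction term, in a limma model over all 12 libraries, in which 14.2% of 8849 genes passed an adjusted p below 0.05 (3.75% with the lower effect in NB4 cells and 10.5% with the higher). MLX was the network gene that passed, with an effect lower by 0.60 in NB4 than in MOLM-13 cells (SE 0.18, adjusted p = 0.0415 from limma). The call was narrow: it was lost without any one of 9 of the 12 libraries, with adjusted p-values from 0.0257 to 0.113 over these fits. For MXI1 and MXD1, which were called in NB4 cells alone, the differences were 0.50 (95% interval 0.06 to 0.94, adjusted p = 0.123) and 0.55 (95% interval −0.003 to 1.10, adjusted p = 0.179) from limma, so a difference between the lines was not shown. The difference for MYC was 0.58, with an interval from −0.68 to 1.85 (adjusted p = 0.553 from limma). MXD3 differed by −0.55 (adjusted p = 0.154 from limma), and the other 5 genes had adjusted p-values of 0.499 or more.

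The order of levels within the network differed between the lines. With DMSO, NB4 cells had MYC far ahead at 133 RPKM, followed by MAX at 26.4, MLX at 18.6, MGA at 9.70 and MXI1 at 8.64 RPKM, then MXD4, MXD1, MLXIP, MXD3 and MNT. MGA and MXI1 overlapped, as did MXD4 and MXD1, MLXIP and MXD3, and MXD3 and MNT. In MOLM-13 cells MXI1 came first at 46.1 RPKM, ahead of MYC at 36.8, MXD1 at 23.2, MLX at 15.2 and MAX at 12.7 RPKM, with MGA, MXD4, MNT, MLXIP and MXD3 below. MYC overlapped there with both of its neighbours, MXI1 and MXD1, and its place rested on DMSO replicate 2. Without that library, an alternative added after seeing the data, MYC came first at 48.3 RPKM and MXI1 second at 42.6 RPKM. With FP54, MYC stayed first in NB4 cells and was the fifth in MOLM-13 cells, where it overlapped with MAX and MGA.

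The 7 genes that encode direct partners of MAX were summed to give the share that MYC took of their transcripts, a ratio within each library that no scaling of whole libraries can move. In NB4 cells MYC made up 77.6, 81.8 and 77.8% of the summed RPKM with DMSO and 63.7, 60.9 and 58.7% with FP54. The groups were well apart, at 79.1 ± 2.38% (SD, n = 3) and 61.1 ± 2.50% (SD, n = 3). In MOLM-13 cells the share was 39.7, 12.4 and 35.5% with DMSO and 5.38, 13.0 and 16.4% with FP54, and DMSO replicate 2 lay among the FP54 libraries. The DMSO mean was 29.2% with that library and 37.6% without it, and the FP54 mean was 11.6%. Thus MYC remained the majority of the partner transcripts in every NB4 library and was a minority in every MOLM-13 library, DMSO included.

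Set against the 4 MXD genes alone, MYC had 5.85 ± 0.60 times their summed RPKM with DMSO and 2.22 ± 0.22 times with FP54 in NB4 cells (SD, n = 3). In MOLM-13 cells the ratio was 0.517 ± 0.317 with DMSO and 0.153 ± 0.081 with FP54 (SD, n = 3), with overlap. Without DMSO replicate 2 the DMSO libraries were at 0.754 and 0.638, a mean of 0.696, and the groups did not overlap. The MXD sum itself was 22.8 ± 1.09 RPKM with DMSO and 31.4 ± 0.78 RPKM with FP54 in NB4 cells, and 75.3 ± 12.6 and 81.8 ± 12.8 RPKM in MOLM-13 cells (SD, n = 3). Relative to MAX, the partner transcripts in NB4 cells were at 6.40 times its level with DMSO and at 4.38 times with FP54. The plot of summed partner transcripts shows where the total shrank in NB4 cells.

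**Figure D3:**
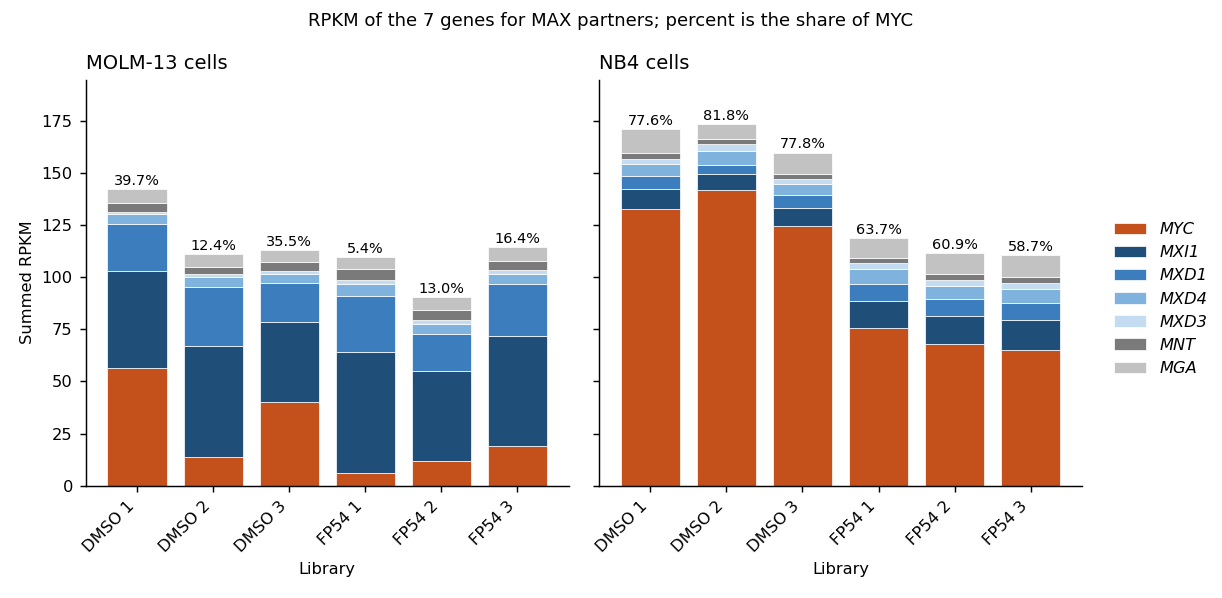
Summed RPKM of the 7 genes that encode MAX partners in each library of MOLM-13 (left) and NB4 (right) cells, stacked by gene, with the share of MYC printed above each bar. The NB4 bars shrank from a mean of 168 RPKM with DMSO to 114 RPKM with FP54, mostly through MYC, while MXI1 and MXD1 formed most of every MOLM-13 bar other than that of DMSO replicate 1.

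Since the pairs formed by the network bind E-boxes, the promoters of the members were searched for the E-box that MYC, MXD and MLX pairs prefer, CACGTG, which reads the same on both strands. RefSeq promoter sequences (GRCh38.p14, from 250 bases before to 50 bases after the transcription start) matched 9 of the 10 genes, all but MYC, with 14 windows. The motif was in 3 of these windows, one each of MXD4, MNT and MLX, against 7.26% of all 35116 windows. These 3 stretches are shown because they hold the network's own binding letters, in capitals, upstream of 3 members, none of which was called in either line. A match is a description of letters and not a bound site. The stretches are those of MXD4 (chr4:2262292-2262359, minus strand, motif 238 bases before the start), MNT (chr17:2401198-2401303, minus strand, 193 bases before it) and MLX (chr17:42567000-42567099, plus strand, 50 bases before it).
MXD4: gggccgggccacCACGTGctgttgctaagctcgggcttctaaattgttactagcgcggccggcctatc
MNT: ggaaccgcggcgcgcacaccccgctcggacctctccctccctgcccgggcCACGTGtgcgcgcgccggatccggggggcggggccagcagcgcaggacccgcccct
MLX: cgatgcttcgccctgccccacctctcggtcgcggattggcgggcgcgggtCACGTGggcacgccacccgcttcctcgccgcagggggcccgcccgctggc
The windows of MXI1 and MXD1, the genes that rose in NB4 cells, held no CACGTG.

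Many genes described as activated by MYC fell with FP54 in both lines. The list held 49 genes. In MOLM-13 cells 47 had the minimum level and 29 fell (61.7%, beside 9.04% of all genes), with none higher and a median log2 fold change of −0.89 beside 0.0033 for all genes. In NB4 cells 48 were tested, and 25 fell (52.1%, beside 10.7% of all genes), with a median of −0.52 beside 0.07. SHMT2, a mitochondrial enzyme of serine metabolism, was the 1 gene that rose there (0.96). The lines shared 20 of these genes, 69.0% of the 29 and 80.0% of the 25. The same share over all genes that fell was not worked out, so these percentages do not set the list apart. The list was also written with earlier results of these data known.

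By the size of the fitted change, the strongest decreases among them in MOLM-13 cells were those of NDUFAF4, an assembly factor of mitochondrial complex I (−1.95), the nucleolar helicase DDX21 (−1.88), MYBBP1A (−1.86) and NOP16 (−1.83), a factor of the large ribosomal subunit. In NB4 cells they were those of the ribosome assembly factors BOP1 (−1.23) and RRS1 (−1.21), the prohibitin PHB1 (−1.21) and again NOP16 (−1.16). NOP16 was at 23.7, 7.17 and 23.9 RPKM in the MOLM-13 DMSO libraries and at 2.90, 5.32 and 5.54 RPKM with FP54. DMSO replicate 2 was thus nearer to the FP54 than to the DMSO libraries for this gene too, without overlap.

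The mean level of the target list is given by library. On the log2 scale, relative to the DMSO mean, it was 0.26, −0.51 and 0.25 in the MOLM-13 DMSO libraries and −1.29, −0.85 and −0.68 in the FP54 libraries. Both MYC and its targets were lowest in FP54 replicate 1, and DMSO replicate 2 was the low DMSO library for both. In NB4 cells the list was at −0.04, 0.01 and 0.03 with DMSO and at −0.45, −0.46 and −0.50 with FP54. The treatments were apart there, but among the DMSO libraries replicate 3 was the lowest for MYC and the highest for the list. The count of 29 MOLM-13 targets was 17 when FP54 replicate 1 was left out, 19 when DMSO replicate 3 was left out and 37 when DMSO replicate 2 was left out.

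**Figure D4:**
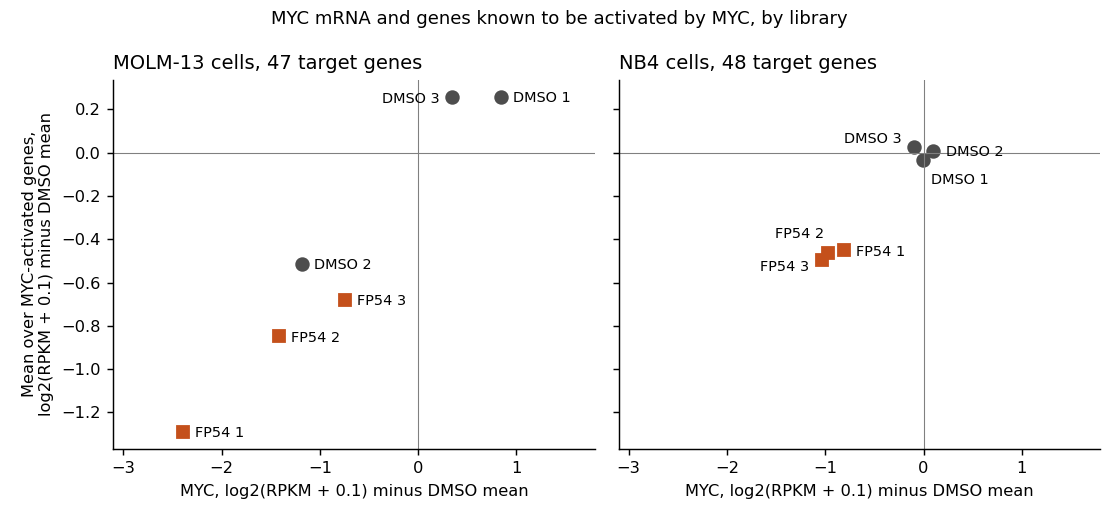
Mean level of MYC-activated genes (vertical axis, 47 genes tested in MOLM-13 and 48 in NB4 cells) against MYC (horizontal axis) in each library, both as log2(RPKM + 0.1) relative to the DMSO mean of the line, with DMSO as grey circles and FP54 as orange squares. MOLM-13 DMSO replicate 2 sits at −0.51 for the target list, nearer to the FP54 libraries at −0.68 to −1.29 than to the other DMSO libraries.

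By likeness to MYC across the 12 libraries, with each line centred on its own mean, the 5 nearest of 8848 genes were SLC19A1 (the reduced folate carrier, Pearson's r = 0.989), XPO5 (the exporter of microRNA precursors, 0.988), PFAS (an enzyme of purine synthesis, 0.987), NIP7 (a ribosome assembly factor, 0.987) and PPRC1 (a transcriptional coactivator, 0.983). These are descriptions over libraries that differ in depth and treatment, and centring by line left the difference between treatments in them. SLC19A1, chosen for this likeness, was at 2.11, 0.934 and 1.98 RPKM with DMSO and 0.529, 0.718 and 1.07 RPKM with FP54 in MOLM-13 cells. Within the network, MAX (0.24) and MGA (0.07) were nearly unrelated to MYC, and the other 7 genes ran from −0.35 for MNT to −0.70 for MXD3.

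Genes described as repressed by MYC did not move alike in the lines. In NB4 cells 3 of 5 tested rose (18.6% of all genes tested rose) and none fell. These were CDKN1A, which encodes the cell cycle inhibitor p21, from 1.99 to 7.98 RPKM (1.97 on the log2 scale), NDRG1, a stress-responsive differentiation gene (1.89), and GADD45A, a DNA damage response gene (1.55). In MOLM-13 cells NDRG1 rose as well (0.80), but CDKN1A fell by 0.53 and GADD45A by 0.77 on the log2 scale, and NDRG2 fell by 0.67. CDKN1A started from 207 RPKM there, a level side by side with 1.99 RPKM in NB4 cells. Counted over 6 genes tested in MOLM-13 cells, 3 fell and 2 rose, where 9.04% and 9.3% of all genes did.

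Targets of the MLX arm went in both directions in both lines. TXNIP, the arrestin-like brake on glucose uptake and a classic MondoA target, was at 58.3, 50.7 and 44.8 RPKM with DMSO and at 135, 140 and 148 RPKM with FP54 in NB4 cells. In MOLM-13 cells it was at 159, 192 and 132 RPKM and at 427, 315 and 393 RPKM. FP54 libraries were higher throughout, with log2 fold changes of 1.46 (adjusted p = 2.06e-06) and 1.24 (adjusted p = 0.00286) from limma. ARRDC4, its close relative, rose by 1.11 in NB4 and by 0.92 in MOLM-13 cells on the same scale, and the glycolytic regulator PFKFB3 (1.18) and the transcription factor KLF10 (1.01) rose in NB4 cells.

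The lipogenic genes of the same list went the other way. FASN fell by 1.86, ACLY by 1.58 and ACACA by 1.51 on the log2 scale in MOLM-13 cells, and by 0.91, 0.58 and 0.50 in NB4 cells. They encode the enzymes that make acetyl-CoA, malonyl-CoA and fatty acids, and are driven by other factors as well. In all, 2 of the 8 genes tested rose and 3 fell in MOLM-13 cells (9.3% and 9.04% of all genes), and 4 rose and 3 fell in NB4 cells (18.6% and 10.7%). One of the list's genes, HK2, is also in the list of MYC-activated genes. Of this list, only the promoter windows of TXNIP and ARRDC4 were searched for the E-box, so its presence cannot be set against the direction of change. The window of ARRDC4 held it 210 bases before the start (chr15:97960453-97960548, plus strand, GRCh38.p14 from RefSeq). It is shown with the motif in capitals because ARRDC4 rose in both lines, while neither TXNIP window held the E-box.
ARRDC4: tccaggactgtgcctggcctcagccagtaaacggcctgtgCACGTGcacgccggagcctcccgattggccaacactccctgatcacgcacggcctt

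Of the other genes of the family, MYCL, a relative of MYC, was low in MOLM-13 cells at 0.681, 0.812 and 0.547 RPKM with DMSO, and rose to 1.96, 1.32 and 1.48 RPKM with FP54. The groups did not overlap, and the log2 fold change was 1.11 (SE 0.24, adjusted p = 0.0134 from limma). In NB4 cells MYCL was below the minimum for testing, at 0.182 RPKM with DMSO and 0.532 RPKM with FP54 on average. MYCN was at most 0.132 RPKM in every library. MLXIPL (ChREBP), the relative of MLXIP, was at 4.36 RPKM with DMSO and 5.23 RPKM with FP54 in MOLM-13 cells (0.22, not called) and at most 0.274 RPKM in NB4 cells.

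Cofactors of MYC changed in a few members. Of 15 genes for proteins that act with MYC on chromatin, 3 fell (20.0%) and none rose in each line, where 9.04% (MOLM-13) and 10.7% (NB4) of all genes fell. RUVBL1 and RUVBL2, the paired ATPases of several chromatin remodelling complexes, fell in both, by 1.40 and 0.77 on the log2 scale in MOLM-13 and by 0.77 and 0.92 in NB4 cells. RUVBL2 was at 86.7, 110 and 94.2 RPKM with DMSO and at 48.9, 54.1 and 50.3 RPKM with FP54 in NB4 cells, with no overlap. The third gene was HCFC1 in MOLM-13 (−0.62) and ACTL6A in NB4 cells (−0.53). Of 15 genes that govern the stability of MYC protein, 6.67% fell in MOLM-13 cells (beside 9.04% of all genes) and 13.3% in NB4 cells (beside 10.7%). These shares were near those of all genes, and none of the 15 rose. AURKA, a mitotic kinase that shields MYC proteins from degradation, fell in both lines (−0.69 in MOLM-13 and −0.75 in NB4 cells). The mitotic kinase PLK1 fell in NB4 cells (−0.69), while the other genes of this list were not called. Ligases and phosphatases of MYC, such as FBXW7 and PPP2CA, were among those not called. For MOLM-13 cells at the same dose and time, the study itself reports no notable change of AURKA RNA, unlike the decrease given here. Its result came from an unpaired t test of 3 independent samples, and not from the limma fit of RPKM used here. The study also reports less AURKA protein with FP54, and a shift of AURKA mRNA to lighter polysome fractions.

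On the repressing side, 11 genes of the SIN3 corepressor, which MXD proteins and MNT bring to DNA, were tested in both lines. In MOLM-13 cells 1 rose (9.09%, beside 9.3% of all genes) and none fell, and in NB4 cells 1 rose (9.09%, beside 18.6%) and 2 fell (18.2%, beside 10.7%). SIN3B, one of its scaffolds, rose in both lines, by 0.80 in MOLM-13 and 0.59 in NB4 cells on the log2 scale. It was at 5.34, 5.23 and 4.58 RPKM with DMSO and at 11.2, 8.05 and 7.65 RPKM with FP54 in MOLM-13 cells, without overlap. BRMS1 (−0.59) and SAP30 (−0.55), accessory subunits, fell in NB4 cells. Of the MGA complex PRC1.6, PCGF6 (−0.95) and TFDP1 (−0.76) fell in MOLM-13 cells among 11 genes tested, and RYBP rose in NB4 cells (0.82) among 12. These genes of PRC1.6 were 18.2% of those tested, beside 9.04% of all genes that fell in MOLM-13 cells, and 8.33%, beside 18.6% of all genes that rose in NB4 cells.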

How the data were processed

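The deposited values are RPKM. Per the study's methods and the submitters' processing notes, the authors trimmed reads with Cutadapt 4.8, removed duplicates with Clumpify, aligned the rest to hg38 with STAR 2.7.11b, counted protein-coding GENCODE genes with featureCounts 2.0.3 and scaled the counts to RPKM. The lengths and totals used for scaling are not given in the sources used here. With merged exon lengths of GENCODE v44, RPKM gave whole reads (within 0.02, for 1 to 100 reads) for 98.2 to 98.8% of values per library, and 20195 (MOLM-13) and 20175 (NB4) of 20329 genes with a length. These reads served as an alternative (limma-voom).

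Log2(RPKM + 0.1) was fitted with limma 3.58.1 in R 4.3.3 (lmFit, and eBayes with a trend), and the code was tested on simulated data. Figures were drawn with matplotlib 3.10.9 in Python 3.11.15. The members and the 9 gene lists, written from general knowledge, were chosen with earlier results of these data known. All 10 members are named, and of each other list up to 4 called genes per line with the largest fold change, besides the 5 genes most like MYC, FTO and markers. Other list members, such as SHMT2, FBXW7 and HK2, and paralogs below the minimum were named after their values were seen. Alternatives were a pseudocount of 1, no filter, median-ratio scaling, quantile normalization, a replicate block, limma-voom and leaving out each library. The cell line of each table is taken from its title. The other 10 samples (m6A-seq and polysome-seq) are not used here.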

Additional observations from a re-analysis of the deposited data

Results flagged for a closer look

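The effect of FP54 on MLX differed between the lines by the interaction test itself: it was −0.60 on the log2 scale in NB4 relative to MOLM-13 cells (adjusted p = 0.0415 from limma over 8849 genes), with all 3 FP54 libraries above DMSO in MOLM-13 and all 3 below DMSO in NB4 cells. The difference was −0.77 with median-ratio scaling, −0.58 with quantile normalization and −0.62 with limma-voom, each at an adjusted p below 0.05. The call was lost with the replicate block (adjusted p = 0.0929 from limma) and in 9 of the 12 fits that each left out 1 library, over which the difference ranged from −0.67 to −0.45 and the adjusted p from 0.0257 to 0.113.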

How the results depend on the processing

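With 3 libraries a group, a single library can decide a call. The count of network genes lower in MOLM-13 cells (0) was 1, MYC, with the replicate block and with limma-voom, and 0 to 1 with 1 library left out, and the count higher (0) was also 0 to 1 (MXD3). MYC-activated genes lower in MOLM-13 cells (29) ranged from 17 to 37 with 1 library left out. The count higher in NB4 cells (2) was 1 with a pseudocount of 1, 0 with median-ratio scaling, 1 with quantile normalization and 1 to 2 with 1 library left out. Network genes that differed between the lines (1) numbered 2 with quantile normalization (MLX and MXD3), 0 with the replicate block and 0 to 1 with 1 library left out. The causes were not tested.

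Replicate numbers did not pair the samples: deviations of same-numbered libraries correlated at −0.26, −0.13 and −0.06 in MOLM-13 and at −0.14, 0.07 and 0.12 in NB4 cells, and not every library correlated best with its own number. In MOLM-13 cells the highest correlations joined other numbers. These were DMSO replicate 1 with FP54 replicate 3 (0.59), DMSO 2 with FP54 1 (0.49) and DMSO 3 with FP54 2 (0.47). A model with such pairs was not fitted, and their part in the MOLM-13 results was not tested. With the replicate block, MYC in MOLM-13 cells was at −1.52 (adjusted p = 0.0269 from limma) and the MLX difference at −0.60 (adjusted p = 0.0929 from limma), and no other call of a network gene changed.

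Signs turned only for changes that were not called. With median-ratio scaling these were MXD1 in MOLM-13 cells (−0.012), MXD3 (−0.11), MXD4 (−0.019), MNT (−0.12), MGA (−0.12) and MLXIP (−0.021) in NB4 cells, and the differences between the lines of MAX (−0.14), MXD4 (−0.073), MGA (−0.092) and MLXIP (−0.060). With quantile normalization they were MAX (0.067), MXD3 (−0.20), MNT (−0.22) and MLXIP (−0.063) in NB4 cells and the differences of MXD4 (−0.062) and MLXIP (−0.16). With 1 library left out, values spanned 0 in MOLM-13 cells for MXD1 (−0.14 to 0.19), MXD4 (−0.042 to 0.15), MGA (−0.051 to 0.0605) and MLXIP (−0.083 to 0.15), in NB4 cells for MAX (−0.056 to 0.037), MXD3 (−0.023 to 0.22), MNT (−0.028 to 0.16) and MGA (−0.12 to 0.21), and for the differences of MAX (−0.017 to 0.093) and MGA (−0.12 to 0.22). Depth limits MXD3 most.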
